A study of Mus musculus with 6 samples.

Results

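The mitochondrial genome encodes the genes described here, namely 13 messenger RNAs, 2 ribosomal RNAs and 22 transfer RNAs. They were chosen as every gene of the deposited count table whose mouse symbol begins with mt-, which gave 37 of 54418 gene identifiers. RNA-seq had been performed on mammary epithelial cells that were sorted by FACS from 4-week-old female C57BL/6 mice, with 3 Glis2+/+ and 3 Glis2-/- animals and 1 library per mouse. The Glis2-/- mice carried a germline knockout, so that every cell of the animal and not only the epithelium lacked the intact gene. Live cells were sorted by their staining for CD24 and CD49f and for the blood and endothelial antigens CD31, CD45 and TER-119. Libraries were made from 1 ng of total RNA with a stranded total RNA kit in which the ZapR reagent cleaves ribosomal cDNA, and the comparison asked how Glis2 loss alters gene expression in the gland.

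Mitochondrial DNA is transcribed from both strands into long precursors. Transfer RNAs lie between most of the other genes, and their excision by nuclear-encoded RNases releases the messenger and ribosomal RNAs, so that genes transcribed together can still reach different steady-state levels. The messenger RNAs encode core subunits of respiratory complexes I, III and IV and of ATP synthase, and the remaining subunits are nuclear-encoded. All of the factors that copy, transcribe, process and translate mitochondrial DNA are imported as proteins from nuclear genes, whereas the ribosomal and transfer RNAs of mitochondrial translation come from the organelle itself. Fragments of mitochondrial DNA have also been inserted into nuclear chromosomes, where they persist as pseudogenes.

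Library totals lay between 24996524 and 31393917 estimated counts. Glis2, which encodes a zinc finger transcription factor, reached 671, 663 and 510 counts in Glis2+/+ cells against 252, 509 and 510 in Glis2-/- cells. Its transcript was thus present in both genotypes, at 21.5 ± 1.83 and 14.5 ± 3.81 CPM (library-scaled counts after TMM normalization, mean ± SD, n = 3), and the genotype of a library rests on its label. Across the 21236 genes that passed the filter on low counts, 0 had an adjusted p of at most 0.05 and moved by 0.58 or more on the log2 scale in edgeR's quasi-likelihood test with Benjamini-Hochberg adjustment, while 1130 genes (5.32%) had an unadjusted p under 0.05. DESeq2 with apeglm called 45 of 27248 genes (0.165%). The median log2 fold change of all tested genes, written throughout as Glis2-/- over Glis2+/+, was 0.01.

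The mitochondrially encoded genes took between 8.12% and 9.63% of all counts, and ribosomal RNA made up most of that share. The 2 rRNA genes held 8.11, 8.58 and 7.17% of counts in the Glis2+/+ libraries and 8.28, 8.43 and 7.81% in the Glis2-/- libraries. The genotypes overlapped, with means of 7.95 ± 0.717% and 8.18 ± 0.323% (SD, n = 3). Since the library chemistry removes ribosomal fragments, the rRNA share describes what was left after that step and not the rRNA content of the cells.

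The 13 mRNA genes held 0.866, 1.05 and 0.955% of counts for the Glis2+/+ mice and 0.864, 0.791 and 0.871% for the Glis2-/- mice. The means were 0.957 ± 0.0922% and 0.842 ± 0.0443% (n = 3), a log2 ratio of −0.19, and the lowest Glis2+/+ library lay inside the Glis2-/- range. The widest 95% Clopper-Pearson interval of a library's mRNA share reached 0.0038 percentage points to either side, so counting error was small beside the spread between mice, and such intervals cover counting error only. In bulk samples a smaller number of cells rich in mitochondria and less mitochondrial RNA per cell cannot be told apart.

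Transfer RNAs were almost unseen. All 22 genes together were counted 150, 146 and 70 times in Glis2+/+ and 137, 144 and 174 times in Glis2-/- libraries. Relative to library size this was 4.95, 5.10 and 2.73 CPM (without TMM scaling) against 5.48, 4.62 and 5.54 CPM, and the genotypes overlapped. The exact 95% interval of the lowest library, the third Glis2+/+ one, ran from 2.13 to 3.45 CPM. It did not reach that of the next lowest, 3.90 to 5.44 CPM. Such intervals take each estimated count as an independent read, so duplicates from amplification and errors of assignment are not covered.

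**Figure D1:**
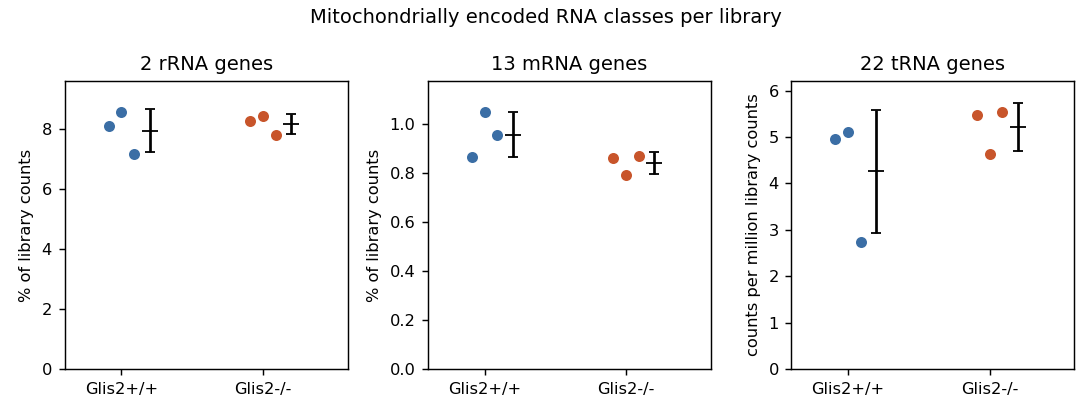
Share of library counts taken by the rRNA genes (%), the mRNA genes (%) and the tRNA genes (CPM), with 1 point per library in blue for Glis2+/+ and orange for Glis2-/-, and the mean and SD (n = 3) as black marks. The genotypes overlap in each panel, and the tRNA panel spans 2.73 to 5.54 CPM.

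The counts of several mRNA genes could not be read on their own, because a nuclear insertion repeats their sequence. Comparison of the mitochondrial genes with all annotated transcripts (GRCm38) found 7 nuclear pseudogenes that matched a mitochondrial mRNA over at least 95% of their own length with at least 99% identity. The annotation searched was not the release that the authors used, so copies annotated in that release alone are not in this count. All 7 lay on the minus strand of chromosome 1 within chr1:24611535-24616197, a span of 4663 bases, in the same order as the genes they copy. In mitochondrial coordinates the copied sequence was chrM:6390-11042, from the end of mt-Co1 into mt-Nd4. The closest pseudogenes below the threshold were Gm13340 (97.6% identical to mt-Co1), Gm13339 (96.7% to mt-Nd2) and Gm13341 (95.9% to mt-Co2), all on chromosome 2, and none of them held more than 460 counts in a library.

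The ends of mt-Co2 and its copy show how little separates them. The mitochondrial gene, chrM:7013-7696 on the plus strand and a protein-coding exon throughout, has 684 bases, and Gm28661, chr1:24614885-24615565 on the minus strand, repeats 681 of them without a mismatch. Below, capitals mark the 3 last bases of mt-Co2, which are its stop codon and are outside the annotated copy.
mt-Co2: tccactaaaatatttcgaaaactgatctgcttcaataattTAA
Gm28661: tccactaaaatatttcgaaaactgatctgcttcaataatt

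In the next pair a mismatch exists. Gm28438 differed from mt-Nd3 by T3C, where positions are counted from 1 at the first base of mt-Nd3 and the mitochondrial base is written first. The pair is shown from that first base, chrM:9459-9476 on the plus strand and chr1:24613102-24613119 on the minus strand, with the position in capitals.
mt-Nd3: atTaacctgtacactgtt
Gm28438: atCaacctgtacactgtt

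Gm29216 matched the last 483 bases of mt-Co1 except for A1066T, counted in the same way. The copies of mt-Atp6 (Gm10925), mt-Co3 (Gm28437), mt-Nd4 (Gm28439) and mt-Nd4l (Gm10222) were identical to the mitochondrial gene over their aligned length.

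mt-Co2, which encodes the complex IV subunit that receives electrons from cytochrome c, was listed at 0 counts in all 6 libraries. Its copy Gm28661 took up 19032, 18366 and 17336 counts for the Glis2+/+ mice against 17449, 15818 and 20775 for the Glis2-/- mice. All counts for this sequence had therefore been assigned to the nuclear copy, and the 0 is no measure of mt-Co2 expression. Summed over gene and copy, the level was 642 ± 24.3 CPM in Glis2+/+ and 630 ± 89.6 CPM in Glis2-/- cells (n = 3), with a log2 fold change of −0.03 ± 0.11 (SE).

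The split was unstable for the other pairs. Of the counts for mt-Atp6, a membrane subunit of ATP synthase, and Gm10925 together, the copy held 81.9, 55.5 and 87.9% in Glis2+/+ and 86.4, 84.2 and 73.2% in Glis2-/- libraries. For mt-Co3, a core complex IV subunit, Gm28437 held 83.2, 95.03 and 84.1% and 78.3, 63.9 and 87.2%. For mt-Nd4l, a small membrane subunit of complex I, Gm10222 held 75.4, 53.6 and 81.8% and 22.1, 80.4 and 75.9%. The third Glis2+/+ library had the highest copy share for mt-Atp6 and mt-Nd4l and the second had the highest for mt-Co3, and the genotypes overlapped in all of these pairs.

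For mt-Nd3, another complex I subunit, between 27.2% and 65.0% of counts were on Gm28438. Gm29216, which covers only the last part of mt-Co1, held between 1.28% and 2.51%, and Gm28439, which covers part of mt-Nd4, held 0 counts. In all, the 7 copies took between 15.3% and 19.6% of the counts on mitochondrial mRNA genes and copies. With the copies added, the mRNA share was 1.06, 1.24 and 1.17% in Glis2+/+ and 1.07, 0.967 and 1.07% in Glis2-/- libraries.

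**Figure D2:**
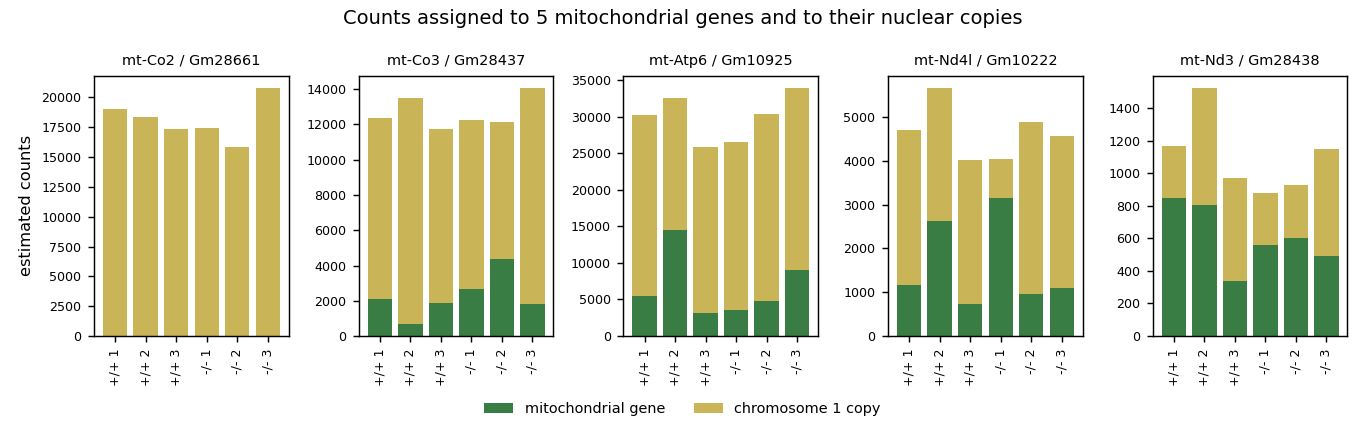
Estimated counts in each of the 6 libraries for 5 mitochondrial genes (green) and, stacked on them, for their chromosome 1 copies (yellow), with a separate axis per pair. The mt-Co2 bars are all yellow since the gene was listed at 0, and the green share of the other bars changes from library to library.

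Summing each pair narrowed the spread between mice. The coefficient of variation within a genotype fell from 67.8% to 6.46% for mt-Atp6, from 46.6% to 8.87% for mt-Co3, from 76.7% to 11.9% for mt-Nd4l and from 30.8% to 17.5% for mt-Nd3. For mt-Co1, with few counts on its copy, it was 4.46% before and 4.20% after. Values with and without the copies are therefore given side by side. The summed values rest on the assumption, which was not tested, that the reads of both members of a pair come from mitochondrial RNA.

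Levels per length were compared on the summed counts, as CPM per kilobase of gene averaged over all 6 libraries. The large subunit rRNA mt-Rnr2 (33555 ± 2321, SD, n = 6) and the small subunit rRNA mt-Rnr1 (29038 ± 2692) led, and their ranges overlapped although mt-Rnr2 was the higher of the pair in every library. The counts of mt-Rnr2 were 1.84 to 2.06 times those of mt-Rnr1. Among the mRNAs, mt-Co1, the catalytic subunit of complex IV, was first at 1767 ± 70.9, with a range that overlapped that of mt-Atp6.

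mt-Atp6 (1533 ± 89.5) and mt-Cytb, the cytochrome b of complex III (1432 ± 151), came next, and their ranges overlapped with each other. A middle group of mt-Co2, mt-Nd1 and mt-Nd5 at 929, 928 and 911 could not be ordered, since the range of each overlapped the next. mt-Nd4 (672), mt-Nd2 (595), mt-Co3 (567) and mt-Nd4l (547) likewise formed a run of overlapping ranges. mt-Atp8, an accessory subunit of ATP synthase, followed at 454 ± 40.4.

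At the low end stood mt-Nd6 (208 ± 43.3), the sole mRNA that is read from the light strand, and mt-Nd3 (111 ± 21.97). mt-Nd6 was above mt-Nd3 in all 6 libraries while their ranges just overlapped. The order depends on the length used. The deposited TPM values divide by an effective length that is shorter for short genes, and on that scale mt-Atp6 and mt-Co1 were level at 463 and 462 TPM, and mt-Atp8 and mt-Nd4l stood higher, at 378 and 296 TPM beside 373.6 for mt-Cytb.

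**Figure D3:**
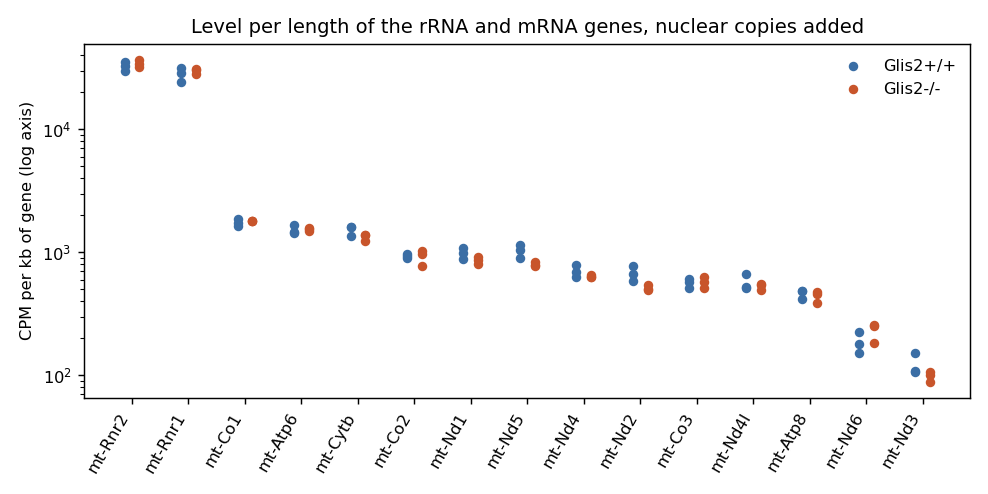
Level of the 2 rRNA and 13 mRNA genes as CPM per kilobase of gene on a log axis, nuclear copies added, with 1 point per library (blue Glis2+/+, orange Glis2-/-) and genes in order of their mean. The rRNA genes lie more than 10-fold above the highest mRNA, and the orange points of mt-Nd2 and mt-Nd5 lie below the blue ones.

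mt-Atp8 and mt-Atp6 overlap on the same strand, and counts from the shared bases can go to either gene. The shared stretch is chrM:7927-7969, 43 bases that are coding sequence in both genes.
mt-Atp8/mt-Atp6: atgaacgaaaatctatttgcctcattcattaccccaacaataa
mt-Nd4l and mt-Nd4 share 7 bases.

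Of the 37 genes, 19 passed the filter on low counts, namely 12 mRNA, 2 rRNA and 5 tRNA genes, and the other 18 were mt-Co2 and 17 tRNA genes. None of the 19 was called by edgeR, where the lowest adjusted p was 0.906, and DESeq2 with apeglm and limma on the TPM values also called 0. An unadjusted p under 0.05 was reached by 2 genes, mt-Nd2 and mt-Nd5, both lower in Glis2-/- cells, against 2.33% of all tested genes in that direction, and by 0 genes in the higher direction, against 2.99%. These were also the 2 genes whose Glis2-/- libraries all lay below the Glis2+/+ libraries, which held for 5.5% of all tested genes, and 0 of the 19 lay above without overlap, against 6.23%. In total 10 genes had a log2 fold change below 0 and 9 above, with a median of −0.07.

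Complex I, the entry point for electrons from NADH, has 7 mitochondrially encoded subunits. mt-Nd2 (chrM:3914-4951, plus strand) was measured at 605, 803 and 697 CPM in Glis2+/+ and 527, 511 and 560 CPM in Glis2-/- libraries. Its log2 fold change was −0.40 ± 0.11 (SE), with an unadjusted p of 0.0073 and an adjusted p of 0.906 (edgeR). The lowest Glis2+/+ library was above the highest Glis2-/- library by less than the gaps between the Glis2+/+ libraries.

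mt-Nd5 (chrM:11742-13565, plus strand), the most abundant complex I mRNA by count, stood at 1627, 2081 and 1894 CPM against 1439, 1404 and 1528 CPM. The log2 fold change was −0.36 ± 0.10, with an unadjusted p of 0.0072 and an adjusted p of 0.906 (edgeR). As for mt-Nd2, the second Glis2+/+ library was the highest and the first the lowest of its genotype, so the order of the libraries was shared between the genes.

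mt-Nd1 was at 853, 1040 and 953 CPM in Glis2+/+ and 833, 776 and 874 CPM in Glis2-/- cells, and the genotypes overlapped (log2 fold change −0.20 ± 0.098, adjusted p 0.907, edgeR). mt-Nd4 also overlapped, with a log2 fold change of −0.14 ± 0.10, and of −0.045 without the second Glis2+/+ library. mt-Nd6 was at 118, 93.1 and 78.6 CPM against 133, 94.9 and 132 CPM, a log2 fold change of 0.31 ± 0.18, and of 0.18 without the third Glis2+/+ library. It was thus the complex I gene with a positive value that did not depend on a copy, and its genotypes overlapped.

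mt-Nd3 had a log2 fold change of −0.25 ± 0.29 on its own and of −0.32 ± 0.17 with Gm28438, where the CPM values were 37.9, 53.3 and 37.3 against 35.2, 30.9 and 36.7. The genotypes no longer overlapped after the addition, by a margin under 1 CPM, and the adjusted p was 0.919 (edgeR). Without the second Glis2+/+ library the values were −0.070 on its own and −0.13 with the copy. mt-Nd4l moved from 0.29 ± 0.59 to −0.10 ± 0.12 when Gm10222 was added, so the sign of its value turned with the copy.

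mt-Cytb, the only mitochondrially encoded subunit of complex III, was at 1563, 1845 and 1850 CPM in Glis2+/+ and 1586, 1418 and 1571 CPM in Glis2-/- libraries. Its log2 fold change was −0.20 ± 0.095 with an adjusted p of 0.906 (edgeR), and the first Glis2+/+ library lay within the Glis2-/- range.

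The complex IV mRNAs had values near 0 once the copies were added. mt-Co1, with its copy, was at 2538, 2861 and 2685 CPM against 2777, 2759 and 2758 CPM. Its log2 fold change was 0.04 ± 0.074, and the Glis2-/- libraries lay within 1% of each other. mt-Co3 alone had the largest mRNA value, 0.93 ± 0.44 with an unadjusted p of 0.065 and an adjusted p of 0.906 (edgeR), and counts of 2088, 671 and 1873 against 2660, 4378 and 1795. With Gm28437 its log2 fold change was 0.02 ± 0.10, and the CPM values were 402, 473 and 451 against 489.8, 405 and 449.

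For the ATP synthase mRNAs the copy again decided the value. mt-Atp6 alone was at 177, 506 and 119 CPM in Glis2+/+ and 145, 160 and 290 CPM in Glis2-/- libraries (log2 fold change −0.43 ± 0.50), and the second Glis2+/+ library was far above the others. With Gm10925 the values were 980, 1138 and 991 against 1061, 1012 and 1083 CPM, and the log2 fold change was 0.02 ± 0.088. mt-Atp8, which has no near-identical copy, had a log2 fold change of −0.07 ± 0.12.

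For the rRNA genes the log2 fold changes were 0.09 ± 0.097 for mt-Rnr1 and 0.07 ± 0.078 for mt-Rnr2. mt-Rnr1 was at 27311, 30076 and 23100 CPM against 29085, 29667 and 27147 CPM, and both genes overlapped between genotypes. With TPM values in limma the sign of the log2 fold change turned for both rRNA genes and for mt-Co1. As a share of summed TPM with the gene Gm23935 left out of the sum, the rRNA genes had a log2 ratio of 0.0022. The part of Gm23935 in the turn was not tested.

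With the copies added, 9 of 13 mRNA genes had a log2 fold change below 0 and 4 above, with a median of −0.10. Their standard errors then lay between 0.074 and 0.18, against 0.075 to 0.59 for the deposited counts of the 12 tested genes and a median of 0.31 over all genes. No mRNA gene was called in this fit either.

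**Figure D4:**
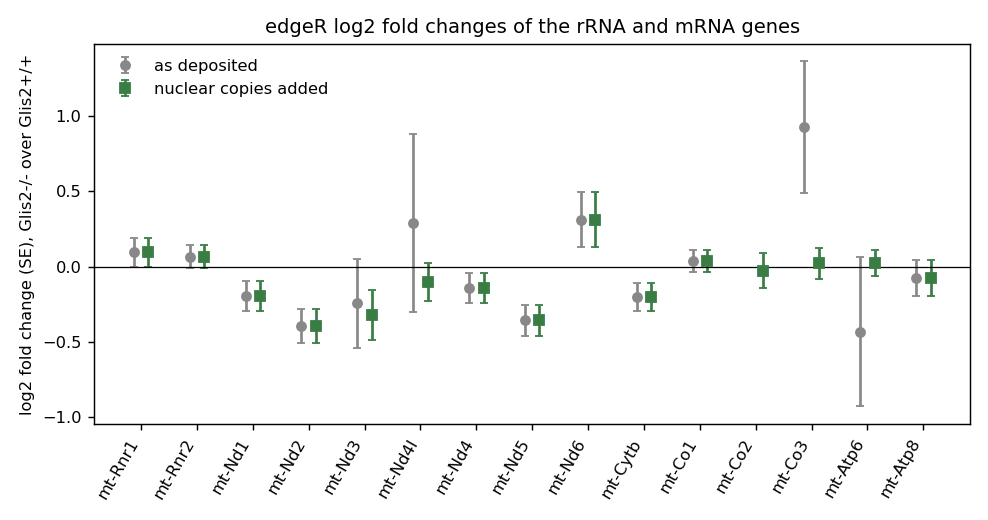
edgeR log2 fold change (Glis2-/- over Glis2+/+) with its SE for the rRNA and mRNA genes, from the deposited counts (grey circles) and after adding the nuclear copy to each gene (green squares). mt-Co3, mt-Atp6 and mt-Nd4l move towards 0 and their error bars shrink, mt-Nd2 and mt-Nd5 stay below 0, and mt-Co2 has a value only after the addition.

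Within a library, the mix of mitochondrial mRNAs does not depend on scaling between libraries. Complex I genes made up 48.6, 49.8 and 49.1% of mitochondrial mRNA counts for the Glis2+/+ mice and 46.1, 45.1 and 45.9% for the Glis2-/- mice. The means were 49.1 ± 0.569% and 45.7 ± 0.507% (n = 3), and the genotypes did not overlap. Complex IV genes made up 29.9, 26.9 and 28.9% against 32.7, 34.7 and 31.7%, again without overlap but in the opposite direction.

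Adding the copies kept both directions. Complex I was then 40.8, 43.2 and 41.4% in Glis2+/+ and 37.5, 38.3 and 38.5% in Glis2-/- libraries. Complex IV was 34.1, 32.0 and 33.0% against 36.9, 36.7 and 36.0%. ATP synthase genes, at 10.2, 9.96 and 9.47% against 10.8, 10.9 and 10.9%, no longer overlapped and were higher in Glis2-/- libraries.

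mt-Cytb was 15.0, 14.9 and 16.1% against 14.8, 14.1 and 14.6%, also without overlap, by less than 0.1 percentage point. The 4 shares sum to 100%, so one cannot fall unless another rises, and they were not tested. From TPM values without the copies the complex I shares of the genotypes overlapped (44.005 ± 1.197% against 42.5 ± 2.30%), while with the copies they did not (37.6 ± 1.41% against 35.2 ± 0.827%).

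By gene, and with the copies, mt-Nd5 made up 16.3 ± 0.608% of mitochondrial mRNA in Glis2+/+ and 13.9 ± 0.407% in Glis2-/- libraries, without overlap. mt-Nd2 was 6.10 ± 0.337% and 5.06 ± 0.145%, and mt-Nd1 was 8.27 ± 0.104% and 7.87 ± 0.219%, also without overlap. mt-Co1, at 23.6 ± 0.667% and 26.3 ± 0.984%, was higher in all 3 Glis2-/- libraries, as were mt-Atp6 and mt-Co3. With the copies, the log2 fold changes of mt-Co1, mt-Atp6 and mt-Co3 were only 0.04, 0.02 and 0.02. The gene shares of a library also add up to a fixed whole, so they do not move independently, and they were not tested. mt-Nd4, the second most abundant complex I gene by count, had overlapping shares of 8.46 ± 0.320% and 8.37 ± 0.316%, so the difference was uneven within complex I.

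**Figure D5:**
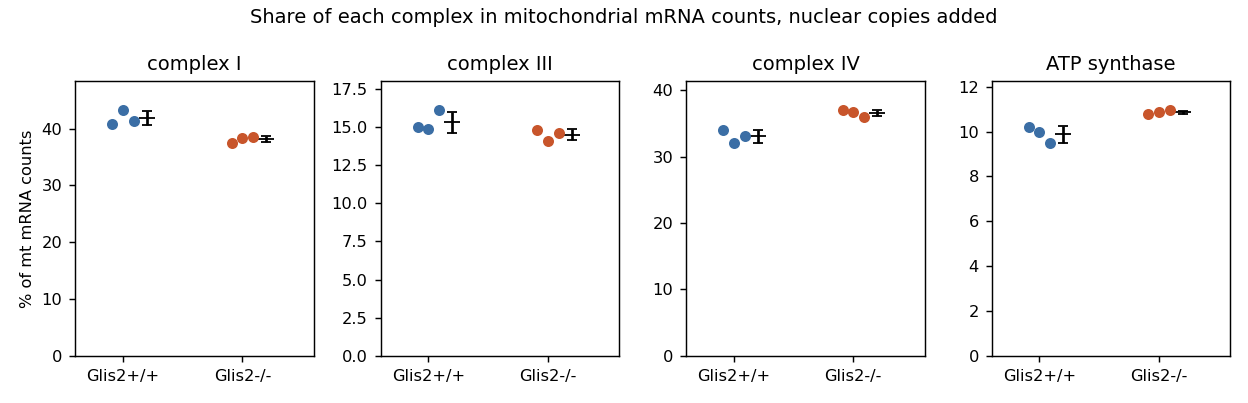
Share of each complex in the mitochondrial mRNA counts of a library (%), nuclear copies added, with 1 point per library (blue Glis2+/+, orange Glis2-/-) and the mean and SD (n = 3) in black. Complex I lies lower and complex IV higher in all 3 Glis2-/- libraries, with the shares of all panels summing to 100% in each library.

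Markers of the cell types that the sort could hold were set beside these values. Of the 12 basal epithelial markers, all had a log2 fold change above 0, while 48.4% of all tested genes were below 0. Their summed level was 5298 to 6792 CPM in Glis2+/+ and 7014 to 8512 CPM in Glis2-/- libraries, without overlap. In edgeR 0 of them were called, and 6 were higher with an unadjusted p under 0.05, against 2.99% of all tested genes. Without overlap 3 basal markers were higher, against 6.23% of all tested genes, and 0 were lower. The 13 luminal markers overlapped (4174 to 6766 against 4197 to 7323 CPM), as did the 9 fibroblast markers (2376 to 7860 against 2668 to 6043 CPM) and the 8 endothelial markers (170 to 846 against 272 to 838 CPM). The 9 immune markers summed to 22.5 to 43.3 against 41.4 to 80.8 CPM, with ranges that just overlapped. The 11 genes that respond to tissue dissociation overlapped at 9886 to 11436 against 10444 to 15478 CPM, and 10 of them had a log2 fold change above 0. The 9 skeletal muscle markers summed to 106, 18.1 and 99.2 CPM against 30.4, 38.1 and 40.1 CPM, with 7 below 0 and a median log2 fold change of −1.05. Of the adipocyte markers 7 were tested and 6 were below 0, with a median of −0.36 and sums of 92.2 to 506 against 143 to 388 CPM. The 9 immune markers had a median log2 fold change of 0.46, with 2 of them below 0, and 0 were called in edgeR. Without overlap 3 of them were higher in Glis2-/- libraries, against 6.23% of all tested genes, and 0 were lower. The part of immune, muscle, adipose, basal, stromal or endothelial cells or of dissociation in the level and mix of mitochondrial mRNA was not tested.

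Ratios between classes are affected by the rRNA removal in the library preparation. Counts of rRNA were 9.36, 8.17 and 7.50 times those of mRNA in Glis2+/+ and 9.59, 10.7 and 8.97 times in Glis2-/- libraries, and the genotypes overlapped. mt-Nd6 as a share of mRNA counts, which sets the light strand against the heavy strand, was 1.39, 0.885 and 0.835% against 1.54, 1.15 and 1.51% and overlapped as well.

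The tRNA genes, of 59 to 75 bases, are described by their counts because few were testable. The highest count in any library was 47, only 6 genes had a count in every library, and 16 were at 0 in at least 1. The sequences of the 3 with the most counts and of mt-Tq are shown as DNA in the direction of transcription, with the anticodon in capitals. All lie on chrM, mt-Tp (proline) at chrM:15356-15422 on the minus strand, mt-Ts1 (serine) at chrM:6870-6938 on the minus strand, mt-Tt (threonine) at chrM:15289-15355 on the plus strand and mt-Tq (glutamine) at chrM:3772-3842 on the minus strand.
mt-Tp: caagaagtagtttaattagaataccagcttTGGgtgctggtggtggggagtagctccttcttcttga
mt-Ts1: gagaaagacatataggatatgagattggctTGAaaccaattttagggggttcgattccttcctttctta
mt-Tt: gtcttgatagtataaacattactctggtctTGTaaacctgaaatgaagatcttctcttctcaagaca
mt-Tq: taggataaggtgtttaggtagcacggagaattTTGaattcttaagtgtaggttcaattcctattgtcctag

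For mt-Tp the Glis2+/+ libraries had 47, 36 and 0 counts, against 8, 31 and 17 for the Glis2-/- animals. mt-Ts1 held 16, 2 and 3 against 29, 11 and 39, and mt-Tt held 22, 14 and 1 against 5, 31 and 12. The genotypes overlapped for all of them, and counts within the Glis2+/+ genotype ran from 0 to 47 for mt-Tp and from 1 to 22 for mt-Tt.

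Their log2 fold changes were −0.55 ± 1.19 for mt-Tp, 1.94 ± 0.97 for mt-Ts1 with an adjusted p of 0.907 (edgeR) and 0.38 ± 1.06 for mt-Tt. mt-Tl1, which reads leucine UUR codons, and mt-Tw, the tryptophan tRNA, were the other tested genes at −0.79 ± 0.94 and 0.06 ± 0.79. A change of 1 on the log2 scale would lie within 2 standard errors for each of these genes, so 2-fold changes of a tRNA were within the error of these 6 libraries.

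mt-Tq was at 0 counts in all 3 Glis2+/+ libraries and at 9, 7 and 7 counts in the Glis2-/- libraries. The Glis2-/- mean was 2.57 times a floor of 3 counts per Glis2+/+ library, a ratio that leaves out the counting error of the Glis2-/- libraries. mt-Tq was left out by the filter on low counts, and without that filter its adjusted p was 0.800 (edgeR), with 0.756 in DESeq2. Of the 22 genes, 14 are read from the heavy and 8 from the light strand, and the ratio of light-strand to heavy-strand tRNA counts was 1.08, 0.698 and 0.458 in Glis2+/+ and 1.21, 0.548 and 1.07 in Glis2-/- libraries, with overlap.

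None of the listed nuclear genes that maintain or express mitochondrial DNA passed the test. The 65 measured genes covered replication, transcription, RNA processing and modification, with regulators such as Nrf1 and proteases such as Lonp1. Mrpl12 stood alone for the ribosomal proteins, so most of the mitochondrial translation apparatus was not covered. Of the 65 genes, 0 were called in edgeR and 0 had an unadjusted p under 0.05 (5.32% of all tested genes). Their median log2 fold change was −0.03. Polrmt, the mitochondrial RNA polymerase, had a log2 fold change of 0.02 ± 0.15 and Tfam, which packages mitochondrial DNA and activates its promoters, one of 0.07 ± 0.13. Tfb2m, the initiation factor, was at −0.05 ± 0.25 and Twnk, the replicative helicase, at 0.05 ± 0.15.

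Polg, the DNA polymerase, was at −0.12 ± 0.11. Lrpprc and Slirp, partners that stabilise mitochondrial mRNAs, were at −0.0039 ± 0.11 and 0.0013 ± 0.26, and the tRNA-processing genes Elac2 and Trmt10c at −0.12 ± 0.13 and −0.15 ± 0.23. Tefm, the elongation factor, was at 1.199, 2.56 and 2.92 CPM against 3.16, 3.14 and 3.36 CPM. It was the lowest of these named genes, its genotypes did not overlap, and its log2 fold change was 0.53 ± 0.41 with an adjusted p of 0.941 (edgeR). In the whole list the genotypes did not overlap for 2 genes in each direction, a share below that of all tested genes (6.23% higher and 5.5% lower). The list summed to 1606 to 1647 CPM in Glis2+/+ and 1581 to 1605 CPM in Glis2-/- libraries, without overlap by less than 1 CPM.

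Among 22 measured genes for the charging of mitochondrial tRNAs, namely 19 aminoacyl-tRNA synthetases and the 3 amidotransferase subunit genes Qrsl1, Gatb and Gatc, 0 were called in edgeR, and Lars2, for leucine, was the 1 gene with an unadjusted p under 0.05, a share near the 5.32% of all tested genes. Without overlap there were 3 genes that were higher in Glis2-/- libraries (Lars2, Hars2 and Vars2) and 2 that were lower (Aars2 and Tars2), beside 6.23% and 5.5% of all tested genes. Lars2 was at 7350, 6820 and 5643 CPM in Glis2+/+ and 7475, 9629 and 8522 CPM in Glis2-/- libraries, without overlap, with a log2 fold change of 0.37 ± 0.12 (adjusted p 0.906). Lars2 made up 92.2% to 95.1% of the summed level of these genes in each library, and the highest value of another gene, Kars, was 121 CPM. Whether all counts on Lars2 come from its messenger RNA was not tested, so they are no sure measure of its expression. The other 21 genes summed to 479 to 514 CPM in Glis2+/+ and 484 to 497 CPM in Glis2-/- libraries.

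The nuclear genes of the respiratory complexes and ATP synthase likewise gave no call. The 77 measured genes include 4 of complex II, which has no mitochondrially encoded subunit. Of the 77 genes, 0 were called in edgeR and 1 had an unadjusted p under 0.05 in each direction. That is no more than the share of all tested genes (2.99% higher and 2.33% lower), and the median log2 fold change was −0.03. The genotypes did not overlap for 4 genes that were higher and 7 that were lower in Glis2-/- libraries, beside 6.23% and 5.5% of all tested genes. The genes with an unadjusted p under 0.05 were Ndufc1 of complex I (−0.41 ± 0.17, adjusted p 0.906) and Uqcrh of complex III (0.31 ± 0.11, adjusted p 0.906). The 36 nuclear complex I genes summed to 1192, 1253 and 1193 CPM in Glis2+/+ and 1162, 1169 and 1184 CPM in Glis2-/- libraries, without overlap by a margin under 1%. The 11 nuclear complex IV genes overlapped, with 544 to 586 against 559 to 581 CPM.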

How the data were processed

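The authors had quantified paired-end reads of the 6 mouse libraries with Salmon 1.2.1 on an mm10 transcriptome with the genome as decoy and had assembled gene values with tximport. The deposited tables hold estimated counts, which are whole numbers without scaling, and TPM on a log2 scale after an offset of 1 that the authors had added. Salmon shares reads between identical sequences by estimation, so the division between a mitochondrial gene and its nuclear copy is an estimate. Symbols and positions of 54166 of 54418 identifiers came from GENCODE annotation of GRCm38, and sequences from its transcripts.

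Counts were filtered with filterByExpr, scaled by TMM and fitted in edgeR 4.0.16 (R 4.3.3) by the quasi-likelihood test with Benjamini-Hochberg adjustment over all tested genes. Standard errors belong to these fits. Copies were sought with BLAST+ 2.17.0. The common biological coefficient of variation was 37.4%, and no library repeated another (chi-square per degree of freedom at least 18.8). Alternatives were DESeq2 1.42.0 with apeglm 1.24.0, DESeq2 size factors, no filter, scaling without mitochondrial genes, the log2 TPM values with an offset of 1 or 0.1 in limma 3.58.1, removal of each library in turn, and the replicate number as a block. Adding the copies together with another of these choices was decided after seeing the data. Of the 37 genes, statistics were given for the mRNA and rRNA genes, for the 3 tRNA genes with the most counts and for any other with an unadjusted p under 0.05 or without overlap, and mt-Tl1 and mt-Tw were added after their values were seen. Nuclear genes were named from the lists by role, and Lars2, the other non-overlapping genes of tRNA charging, Kars, Ndufc1 and Uqcrh after their values were seen. The scripts were tested on simulated counts. The genes and gene lists were chosen with earlier results of these data known.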

Additional observations from a re-analysis of the deposited data

How the results depend on the processing

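The number of mitochondrially encoded genes called changed was 0 in all 22 settings, and it was 0 in all 12 settings for the maintenance and expression genes and for the nuclear respiratory chain genes. Of 17 genes with full statistics, 8 kept the sign of their log2 fold change in every setting, mt-Nd2 and mt-Nd5 among them. apeglm shrank every mitochondrial log2 fold change to at most 1.96e-05 in size, and the unshrunken DESeq2 values are used below. Replicate numbers in the labels are shared between genotypes, and the deviations of same-numbered mice correlated at −0.02, 0.17 and 0.02. With a replicate block 0 mitochondrially encoded genes were called.

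With limma on log2(TPM + 1), log2 fold changes were −0.078 for mt-Rnr1, −0.11 for mt-Rnr2, −0.14 for mt-Co1 and 0.25 for mt-Tp, and with log2(TPM + 0.1) they were −0.078, −0.11, −0.14 and 1.25, with −0.00093 for mt-Nd4l. In the first of these fits, values that kept their sign moved to −0.37 for mt-Nd1, −0.31 for mt-Nd4, −0.38 for mt-Cytb, −0.27 for mt-Atp8, 0.13 for mt-Nd6 and 0.00060 for mt-Nd4l, and in the second mt-Tt moved to 0.64. The median over the tested genes was −0.06 and −0.14 in the fits with offsets of 1 and 0.1, against 0.01 for counts. Adding the copies gave 0.022 for mt-Atp6 and −0.10 for mt-Nd4l, adding them in DESeq2 0.014 and −0.11, and adding them with the replicate block 0.025 and −0.094. For mt-Tp the replicate block gave 0.12 without and 0.12 with the copies. The log2 ratio of the complex I share was −0.10 in counts, −0.049 in TPM and −0.13 with the copies, and that of complex IV was 0.21 in counts and 0.11 in TPM with the copies. The causes were not tested.

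Leaving out each library in turn gave log2 fold changes of −0.0035 to 0.19 for mt-Rnr1, 0.0058 to 0.12 for mt-Rnr2, −0.028 to 0.084 for mt-Co1, −0.16 to 0.0019 for mt-Atp8, −0.83 to 0.42 for mt-Atp6, 0.57 to 1.201 for mt-Co3, −0.65 to 0.97 for mt-Nd4l, −1.13 to −0.014 for mt-Tp and −0.50 to 0.99 for mt-Tt. The second Glis2+/+ library moved mt-Nd1 to −0.12, mt-Nd3 to −0.070 and mt-Nd4 to −0.045 when left out, and the first moved mt-Nd4 to −0.24. mt-Nd3 ranged from −0.53, without the third Glis2+/+ library, mt-Nd6 from 0.18, without the same library, to 0.46, and mt-Ts1 from 1.52 to 3.25, without the first Glis2+/+ library. With the copies added mt-Nd3 was −0.13 without the second Glis2+/+ library, and the ranges were −0.018 to 0.19 for mt-Rnr1, −0.0088 to 0.12 for mt-Rnr2, −0.022 to 0.084 for mt-Co1, −0.16 to 0.0091 for mt-Atp8, −0.034 to 0.096 for mt-Atp6, −0.062 to 0.088 for mt-Co3, −0.19 to 0.032 for mt-Nd4l, −1.14 to −0.014 for mt-Tp and −0.50 to 0.99 for mt-Tt. The mRNA share kept its direction with a log2 ratio of −0.25 to −0.11, the complex I share with −0.11 to −0.10 and the complex IV share with 0.17 to 0.24. The rRNA share ranged from −0.029 to 0.098. The tRNA share had a log2 ratio of 0.29, and of 0.053 without the third Glis2+/+ library. The ATP synthase share of the deposited counts had one of −0.14, and of 0.31 without the second Glis2+/+ library.

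The analysis holds 3 mice per genotype and at most 47 counts per tRNA gene and library. The spread between libraries limits the tRNA and mRNA values, and the division of reads between identical sequences further limits the mRNA values.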
